A study of Homo sapiens with 8 samples.

Results

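The semaphorins, plexins and neuropilins were followed in U87 cells, an established human glioblastoma line, after knockdown of RND3. Members were all genes whose symbol begins with SEMA or PLXN, together with NRP1 and NRP2. The rule found 40 gene symbols, of which 9 were antisense RNA genes with no probe on the array. The remaining 31 genes (20 semaphorins, 9 plexins and 2 neuropilins), out of 19483 named genes, were represented by 45 probes. The data comprised 8 one-colour arrays, 1 per RNA sample. Cells had been transiently transfected with siRNA against RND3 (siRND3) or with a non-silencing siRNA (siControl), with 3 arrays of each kind at 24 h and 1 of each at 48 h. The methods name a pair of custom oligos against RND3 and do not say which array received which, and no source used here says whether replicates were separate transfections, so that p-values measure the spread between these arrays, which may be technical.

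Semaphorins are secreted or membrane-bound cues that steer axons, endothelial cells and tumour cells. Plexins are their receptors, and most secreted class 3 semaphorins need a neuropilin as co-receptor. The cytoplasmic part of a plexin holds a GTPase-activating domain for small GTPases of the Ras family, interrupted by a segment to which Rnd GTPases bind. RND3 (RhoE) is an Rnd GTPase that stays bound to GTP and is known for opposing RhoA and ROCK1.

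RND3 itself, which checks the labels, had log2 values of 11.88, 11.91 and 11.90 on the siControl arrays and 10.12, 10.18 and 10.42 on the siRND3 arrays at 24 h. The groups did not overlap, and the level fell to 31.7% of siControl (log2 difference -1.66, SE 0.10, limma adjusted p 0.000345, n = 3 per group). An exact two-sided permutation test of these 6 values gave p = 0.1, the smallest value it allows. At 48 h RND3 read 11.48 in siControl and 9.84 in siRND3 cells, on 1 array each (log2 difference -1.65). Of 42405 probes, between 68.3% and 70.7% were well above background on each array. Of 10 marker genes listed for the line, 7 (VIM, NES, CD44, TNC, FN1, S100A6 and CHI3L1) were well above background on all 8 arrays and the glial gene GFAP on none. All 4 endothelial and all 4 leukocyte markers also carried that mark on all 8 arrays, so it is a low bar. The summed level of the markers listed for the line was lower in siRND3 cells (log2 18.45 to 18.63) than in siControl cells (18.71 to 18.74), as was that of 3 neuronal markers (10.41 to 10.57 against 10.90 to 10.96) and of 3 epithelial markers (6.07 to 6.18 against 6.24 to 6.44). That of 3 oligodendrocyte markers was higher in siRND3 cells (9.46 to 9.73 against 9.32 to 9.42), and the sums of the endothelial (8.21 to 8.34 against 8.18 to 8.28) and leukocyte markers (7.61 to 7.76 against 7.27 to 7.63) overlapped. The sums add linear signal, so the brightest genes weigh most: S100A6, VIM and CD44 for the line, SNAP25 for neurons, MOG for oligodendrocytes and CDH5 for endothelial cells. Of the line markers at 24 h, CD44 and OLIG2 passed as lower and NES probe A_23_P103672 as higher. VIM, S100A6, TNC, FN1 and CHI3L1 did not pass, and GFAP and S100B were not tested. Of the neuronal markers, SNAP25 and SYT1 probe A_23_P36795 passed as lower. No tested oligodendrocyte, epithelial or leukocyte probe passed. Among endothelial probes only PECAM1 A_23_P252471 passed, as lower (log2 difference -0.99, limma adjusted p 0.0216), while CDH5 differed by 0.31 (limma adjusted p 0.0619). The part of these levels in the results was not tested. All arrays lay on 1 slide, with the siRND3 arrays in row 1 and the siControl arrays in row 2, so position on the slide and knockdown cannot be told apart. Both arrays at 48 h lay in column 4 and replicates 1 to 3 at 24 h in columns 1 to 3, so time cannot be separated from column. In bulk RNA, fewer cells expressing a gene and less of its RNA per cell cannot be told apart either.

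At 24 h, 24 of the 31 genes could be tested, since a probe was well above background on all 3 arrays of a group: 14 semaphorins, 8 plexins and 2 neuropilins, with 36 probes. The other 7 genes were PLXNC1 and the semaphorin genes SEMA3D, SEMA3E, SEMA3G, SEMA5B, SEMA6A and SEMA6D. Of these, SEMA3G alone was well above background on any array, on 2 of the 3 siRND3 arrays at 24 h. Transcripts of 4 genes were down-regulated in siRND3 cells, the ligands SEMA4F and SEMA3A and the receptors PLXNA4 and PLXND1. These are 4 of 24 tested members, where 9.26% of all 14805 genes tested were called lower. SEMA3A entered this count only through the siControl arrays, the group where it was high. With no filter on dim probes, or with a filter on all 6 arrays, the lower members were 3 (SEMA4F, PLXNA4 and PLXND1). No member was called higher at an adjusted p of 0.05 in limma, where 7.16% of all genes were. SAM, the test named in the methods, called 1 member higher, PLXNA1. Without any 1 of the 3 siControl arrays the lower calls were 2, PLXNA4 and SEMA4F, and without siRND3 replicate 1 there were 2 higher calls, SEMA4B and SEMA5A. Over all tested probes, 1835 were lower in the main comparison and 908 to 1068 without 1 siControl array. Probes called higher were 1515 in the main comparison and 1089 without siRND3 replicate 1. At an unadjusted p under 0.05 there were 5 higher and 7 lower members, where 19.4% of all genes were higher and 16.4% lower. Taking for each gene the probe with the highest mean, the median log2 difference was 0.03 over the 24 members and 0.04 over all genes.

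**Figure D1:**
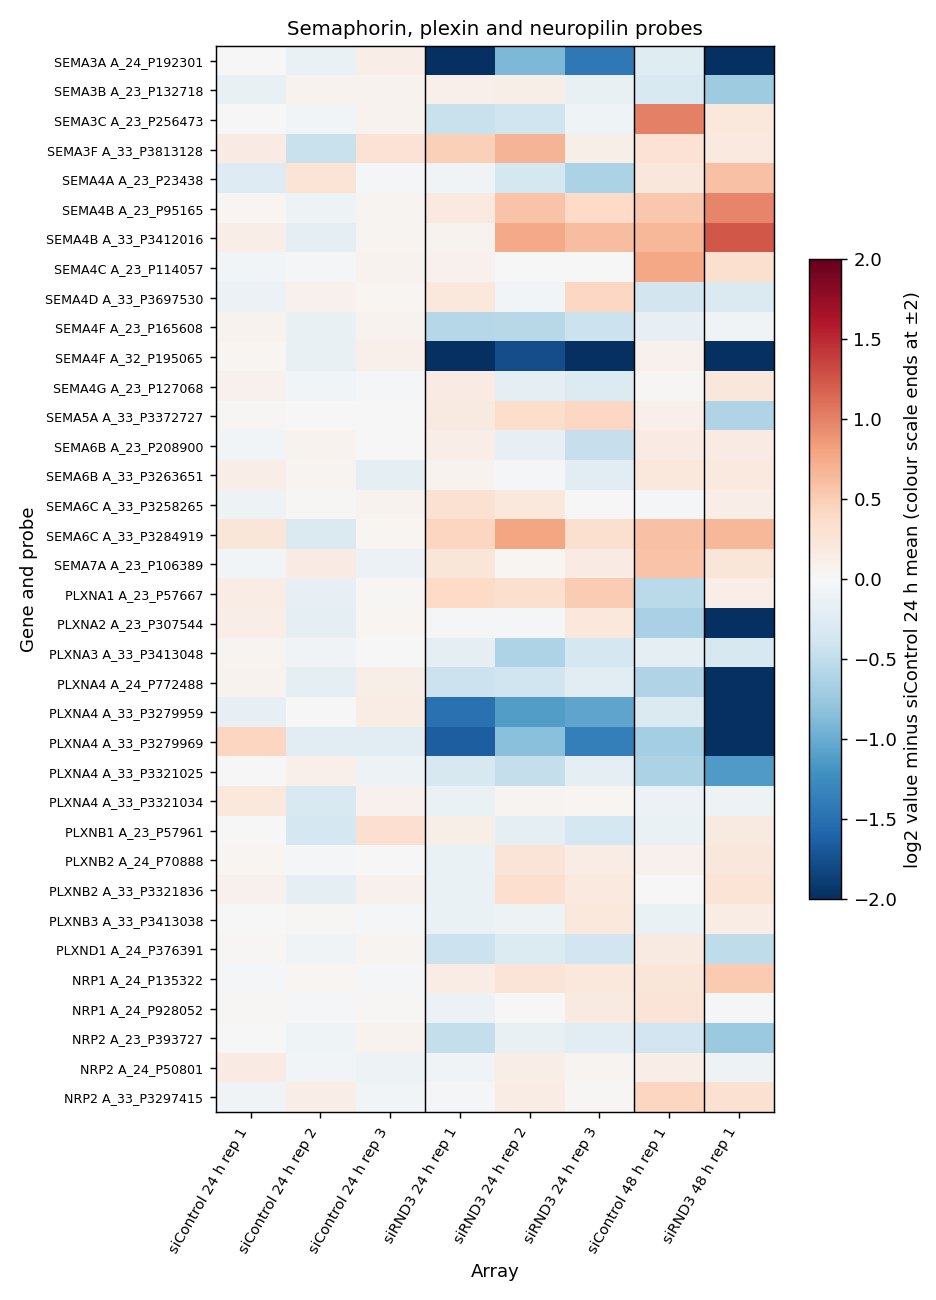
The 36 tested probes (rows) on 8 arrays (columns, separated by group), coloured by the log2 value minus the mean of the 3 siControl arrays at 24 h, with blue for lower and red for higher. At 24 h the deepest blue on all 3 siRND3 arrays is at SEMA3A, SEMA4F A_32_P195065 and PLXNA4 A_33_P3279959 and A_33_P3279969, which are blue on the siRND3 array at 48 h too, and PLXNA2 is dark blue on the siRND3 array at 48 h only.

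The promoters of the genes that fell together at 24 h are shown because these genes share a direction. RefSeq promoter windows (GRCh38.p14) were found for 27 of the 31 genes, and SEMA3A, NRP1, SEMA6A and SEMA6B had no entry. Each line gives the 250 bases upstream of the annotated start, 5′ to 3′ on the gene's strand, for SEMA4F (chr2:74653997-74654246, plus strand), PLXNA4 (chr7:132576471-132576720, minus strand) and PLXND1 (chr3:129606677-129606926, minus strand). Capitals mark matches on either strand to the GC box GGGCGG or to the CCAAT box CCAAT, and overlapping matches run together.
SEMA4F: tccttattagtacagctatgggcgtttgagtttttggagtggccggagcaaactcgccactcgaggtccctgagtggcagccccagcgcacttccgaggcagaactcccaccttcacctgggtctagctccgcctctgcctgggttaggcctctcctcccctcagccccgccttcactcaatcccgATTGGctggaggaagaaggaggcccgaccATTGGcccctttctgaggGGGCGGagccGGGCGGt
PLXNA4: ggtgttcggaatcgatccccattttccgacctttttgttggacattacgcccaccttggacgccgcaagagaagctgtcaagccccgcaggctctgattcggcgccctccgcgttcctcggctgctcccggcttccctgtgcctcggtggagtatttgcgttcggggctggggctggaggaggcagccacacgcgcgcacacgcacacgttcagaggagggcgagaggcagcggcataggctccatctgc
PLXND1: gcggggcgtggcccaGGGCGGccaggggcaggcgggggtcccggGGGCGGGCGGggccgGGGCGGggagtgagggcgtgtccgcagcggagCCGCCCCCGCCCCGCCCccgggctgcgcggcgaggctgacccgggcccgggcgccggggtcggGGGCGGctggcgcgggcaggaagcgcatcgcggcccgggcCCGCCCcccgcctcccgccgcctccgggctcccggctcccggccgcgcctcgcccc
The SEMA4F window held 2 matches to the GC box and 2 to the CCAAT box, that of PLXND1 held 9 to the GC box, and that of PLXNA4 held neither. CACGTG (E-box), TGANTCA (AP-1), TGACGTCA (CRE) and TATAAA, searched on both strands, were not found in these 3 windows. Which PLXNA4 transcript its window precedes was not determined. The windows of PLXNA1, SEMA5A and PLXNA2, none of them called at 24 h, held 5, 7 and 3 matches to the GC box. Over all 35116 windows of this length in the table, 42.6% held the GC box, 32.0% the CCAAT box, 6.34% CACGTG, 6.57% TGANTCA, 1.65% TGACGTCA and 10.72% TATAAA. Of the 48 windows of member genes, 62.5% held the GC box and 22.9% the CCAAT box. The GC content was 62.4% for SEMA4F, 63.6% for PLXNA4 and 88.8% for PLXND1, and its median over all windows was 58.0%.

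Among the ligands, SEMA4F, a membrane-bound class 4 semaphorin known for collapsing growth cones, had the largest fall of the tested member probes. Its probe A_32_P195065 read 9.54, 9.36 and 9.61 (log2 signal) in siControl cells and 7.34, 7.73 and 7.44 in siRND3 cells at 24 h. All 3 siRND3 arrays lay far below the siControl arrays, and the level fell to 25.0% of siControl (log2 difference -2.00, SE 0.12, limma adjusted p 0.000445). The other SEMA4F probe, A_23_P165608, annotated to the same transcript, read 9.01, 8.80 and 9.01 in siControl cells and 8.36, 8.39 and 8.51 in siRND3 cells. It also separated the groups, at a smaller size of -0.52 (SE 0.09, limma adjusted p 0.0179). Leaving out siControl replicate 1, siControl replicate 3 or siRND3 replicate 2 ended the call of this second probe. Within an array, the first probe minus the second was 0.57 ± 0.04 (SD, n = 3, log2) under siControl and -0.92 ± 0.22 (SD, n = 3) under siRND3, with no overlap (exact permutation p = 0.1, the smallest possible).

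SEMA3A, the secreted class 3 semaphorin best known for repelling axons through neuropilin-1 and class A plexins, read 3.92, 3.78 and 4.04 in siControl cells and 1.77, 3.01 and 2.48 in siRND3 cells at 24 h. The groups did not overlap, and the difference was -1.49 (SE 0.29, limma adjusted p 0.0246). Its signal was low, and it was well above background on all 3 siControl arrays and on 2 of the 3 siRND3 arrays. The value shrank to -0.15 with normexp background correction (adjusted p 0.15) and to -0.24 in the authors' log2 values (adjusted p 0.097), and the call was also lost without any 1 of the 3 siControl arrays or without siRND3 replicate 3.

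The other tested class 3 semaphorins, all secreted, did not pass the threshold at 24 h. SEMA3B, proposed as a tumour suppressor in lung, read 8.78, 8.99 and 8.99 against 9.03, 9.04 and 8.76 in siControl and siRND3 cells, and the 95% interval of the log2 difference ran from -0.24 to 0.28. SEMA3C, known from development of the cardiac outflow tract, read 8.15, 8.10 and 8.22 in siControl cells and 7.71, 7.76 and 8.07 in siRND3 cells. Its groups did not overlap, but its difference of -0.31 missed the threshold (limma adjusted p 0.13). SEMA3C passed in the fit to all 8 arrays and without siRND3 replicate 3. SEMA3F, a ligand for neuropilin-2, overlapped between groups, with a 95% interval from -0.11 to 0.97. Among the ligands of other classes, SEMA5A, a transmembrane semaphorin with thrombospondin repeats, read 10.91, 10.88 and 10.87 in siControl cells and 11.07, 11.23 and 11.30 in siRND3 cells. All 3 siRND3 values were higher, and the difference of 0.32 missed the threshold (limma adjusted p 0.0609). SEMA5A passed under scaling to the 75th percentile, with normexp correction and without siRND3 replicate 1. The remaining ligands, 8 genes of classes 4, 6 and 7 (SEMA4A, SEMA4B, SEMA4C, SEMA4D, SEMA4G, SEMA6B, SEMA6C and SEMA7A), had log2 differences between -0.35 and 0.51, and none passed in the main comparison. SEMA4B was called higher with normexp correction, in the authors' log2 values, in the fit to all 8 arrays and without siRND3 replicate 1.

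Among the receptors, PLXNA4, a class A plexin that serves as a receptor for SEMA3A together with neuropilin-1, was represented by 5 probes. They were annotated to 3 transcripts of the gene, A_33_P3279959 and A_33_P3279969 to 1 each and the other 3 probes to the third. A_33_P3279959 read 5.51, 5.67 and 5.81 in siControl cells and 4.16, 4.54 and 4.61 in siRND3 cells at 24 h. The groups stood well apart, with a fall to 42.8% of siControl (log2 difference -1.22, SE 0.14, limma adjusted p 0.00402). A_33_P3279969 read 4.72, 4.08 and 4.05 in siControl cells and 2.64, 3.44 and 2.92 in siRND3 cells (difference -1.29, SE 0.26, limma adjusted p 0.0263). It was well above background on 1 of the 3 siRND3 arrays, and its call was lost when any 1 array at 24 h other than siRND3 replicate 2 was left out. This probe was tested only through the siControl arrays, the group where it was high. Over the alternatives its difference ranged from -1.55 to -0.32. The 3 probes of the third transcript did not pass, although A_24_P772488 (difference -0.35, limma adjusted p 0.0913) and A_33_P3321025 (-0.33, limma adjusted p 0.0857) had all 3 siRND3 values below the siControl values. The last probe, A_33_P3321034, overlapped between groups, with a 95% interval of the difference from -0.37 to 0.33. The difference of A_33_P3279959 was smaller with normexp (-0.39) and in the authors' log2 values (-0.55), and passed in both.

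**Figure D2:**
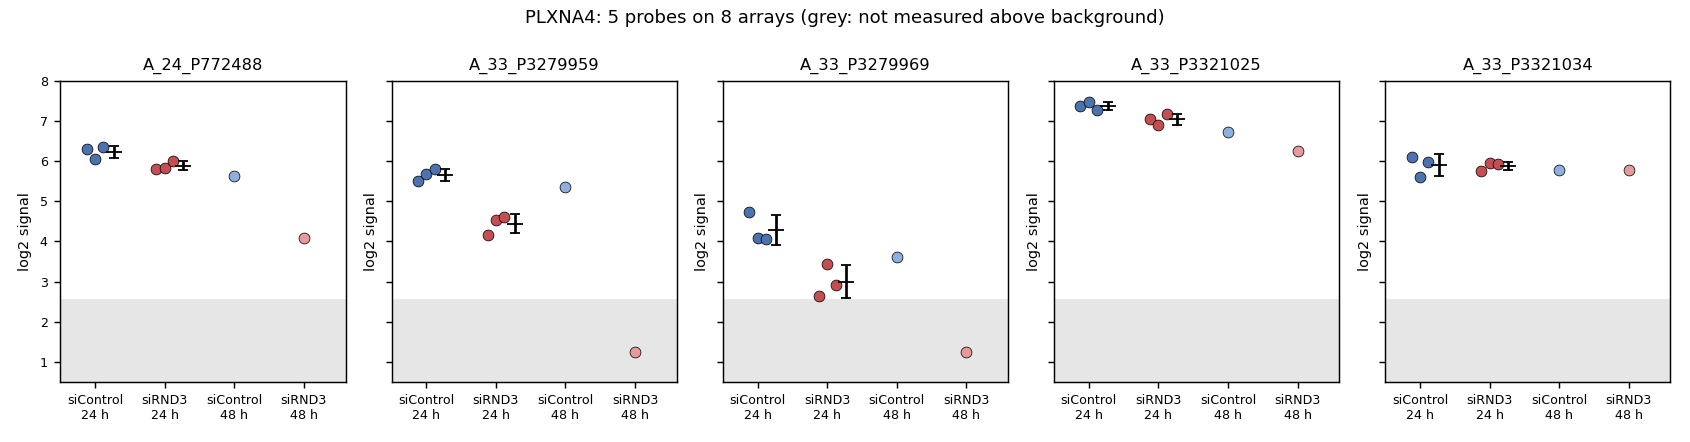
Log2 signal of the 5 PLXNA4 probes on 8 arrays by group, with points for arrays and, for 3 arrays, the mean and SD beside them. The grey band lies below 2.54, the lowest signal so marked on the siRND3 array at 48 h and the highest such floor of the 8 arrays. A_33_P3279959 and A_33_P3279969 drop at 24 h and fall into the band at 48 h, while A_33_P3321034 stays near 5.79 at 48 h in both conditions.

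PLXND1, the receptor of SEMA3E and a regulator of vessel patterning, read 8.27, 8.18 and 8.30 in siControl cells and 7.82, 7.98 and 7.87 in siRND3 cells. The groups did not overlap, and the level fell to 77.7% of siControl (difference -0.36, SE 0.08, limma adjusted p 0.0331). The call was lost without any 1 of the siControl arrays, without siRND3 replicate 1 and without siRND3 replicate 3, while the size with 1 of the 6 arrays left out stayed between -0.41 and -0.33. PLXNA1, a class A plexin that also pairs with neuropilin-1, read 11.46, 11.15 and 11.33 in siControl cells and 11.72, 11.63 and 11.82 in siRND3 cells. Its groups did not overlap either, but its difference of 0.41 (SE 0.10, limma adjusted p 0.0546) missed the threshold. It passed under scaling to the 75th percentile, normexp correction, the authors' log2 values, a filter on all 6 arrays, SAM and a fit to all 8 arrays.

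PLXNA3, a partner of neuropilin-2 in SEMA3F signalling, read 11.22, 11.09 and 11.17 against 10.96, 10.54 and 10.81, all lower in siRND3 cells, with a difference of -0.39 (limma adjusted p 0.0858). It passed with normexp correction and in the authors' log2 values. PLXNA2, another class A plexin, differed by 0.05 at 24 h, with a 95% interval from -0.22 to 0.32. The class B plexins, receptors for class 4 semaphorins and, for PLXNB3, for SEMA5A, overlapped between groups. Their intervals ran from -0.62 to 0.33 for PLXNB1, from -0.18 to 0.36 and from -0.22 to 0.48 for both PLXNB2 probes, and from -0.27 to 0.25 for PLXNB3.

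The neuropilins, co-receptors that also bind VEGF, were not called at 24 h. For NRP1, A_24_P135322 read 11.60, 11.67 and 11.60 in siControl cells and 11.78, 11.88 and 11.83 in siRND3 cells (difference 0.21, limma adjusted p 0.113). The NRP1 probe A_24_P928052, annotated to a different transcript, overlapped between groups, with an interval from -0.21 to 0.24. For NRP2, A_23_P393727 had all 3 siRND3 values below the siControl values (difference -0.28, limma adjusted p 0.143), while the intervals of the other 2 probes ran from -0.20 to 0.28 and from -0.18 to 0.27.

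At 48 h, with 1 array per condition, the single arrays were assumed to vary like those at 24 h in a limma model of all 4 groups. Transcripts of 7 of the 24 tested members were called lower (PLXNA2, PLXNA4, PLXND1, SEMA3A, SEMA3C, SEMA4F and SEMA5A), where 13.3% of all genes were. PLXNA1 was called higher, as were 14.3% of all genes. The spread in this model came from the arrays at 24 h.

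The SEMA4F probe A_32_P195065 read 9.60 in siControl and 7.35 in siRND3 cells at 48 h (difference -2.24, SE 0.22, limma adjusted p 0.00124), close to its size at 24 h. The other SEMA4F probe read 8.77 and 8.87, so the probes disagreed at 48 h (difference 0.09, limma adjusted p 0.783). For folds of probes not well above background in siRND3 cells at 48 h, a floor of 2.54 stood in for the dim value. This is the lowest signal well above background on that array. It is no strict limit, since unmarked probes of SEMA3G and MICAL2 read 3.53 and 3.75 there, so these folds are not lower bounds. SEMA3A read 3.67 in siControl and was not well above background in siRND3 cells, 2.19-fold lower against the floor. Its fitted difference of -2.26 was -0.18 with normexp correction and -0.28 in the authors' log2 values, and passed in neither. PLXNA4 probe A_33_P3279959 read 5.37 in siControl and 1.25 in siRND3 cells, where it was not well above background. It was 7.09-fold lower against the floor. Against the same floor A_33_P3279969 was 2.10-fold lower, and A_24_P772488, measured on both arrays, fell from 5.63 to 4.08 (difference -1.54). Of the other PLXNA4 probes of that transcript, A_33_P3321034 read 5.79 on both arrays. A_33_P3321025 read 6.74 in siControl and 6.25 in siRND3 cells (difference -0.49) and did not pass. With normexp correction and in the authors' log2 values, A_33_P3279959 (-0.62 and -0.95) and A_24_P772488 (-0.47 and -0.73) passed at smaller sizes, and A_33_P3279969 (-0.26 and -0.54) did not pass.

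PLXND1 read 8.43 in siControl and 7.74 in siRND3 cells at 48 h (difference -0.69, SE 0.14, limma adjusted p 0.0157). SEMA3C read 9.16 and 8.37 (difference -0.79, SE 0.19, limma adjusted p 0.0342). Both arrays lay above every 24 h array for SEMA3C, and its call at 48 h was lost without any 1 of the 3 siControl arrays at 24 h and with no filter on dim probes. PLXNA1 read 10.77 in siControl and 11.45 in siRND3 cells (difference 0.68, SE 0.18, limma adjusted p 0.0447), and its call was lost without a filter on dim probes and without any 1 of 5 of the 6 arrays at 24 h. SEMA5A, with a value of 0.32 at 24 h, read 10.99 in siControl and 10.28 in siRND3 cells (difference -0.71, SE 0.15, limma adjusted p 0.0190). PLXNA2 read 3.50 in siControl and was not well above background in siRND3 cells, 1.95-fold lower against the floor of 2.54. Its difference was -0.14 with normexp and -0.24 in the authors' log2 values, and passed in neither.

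**Figure D3:**
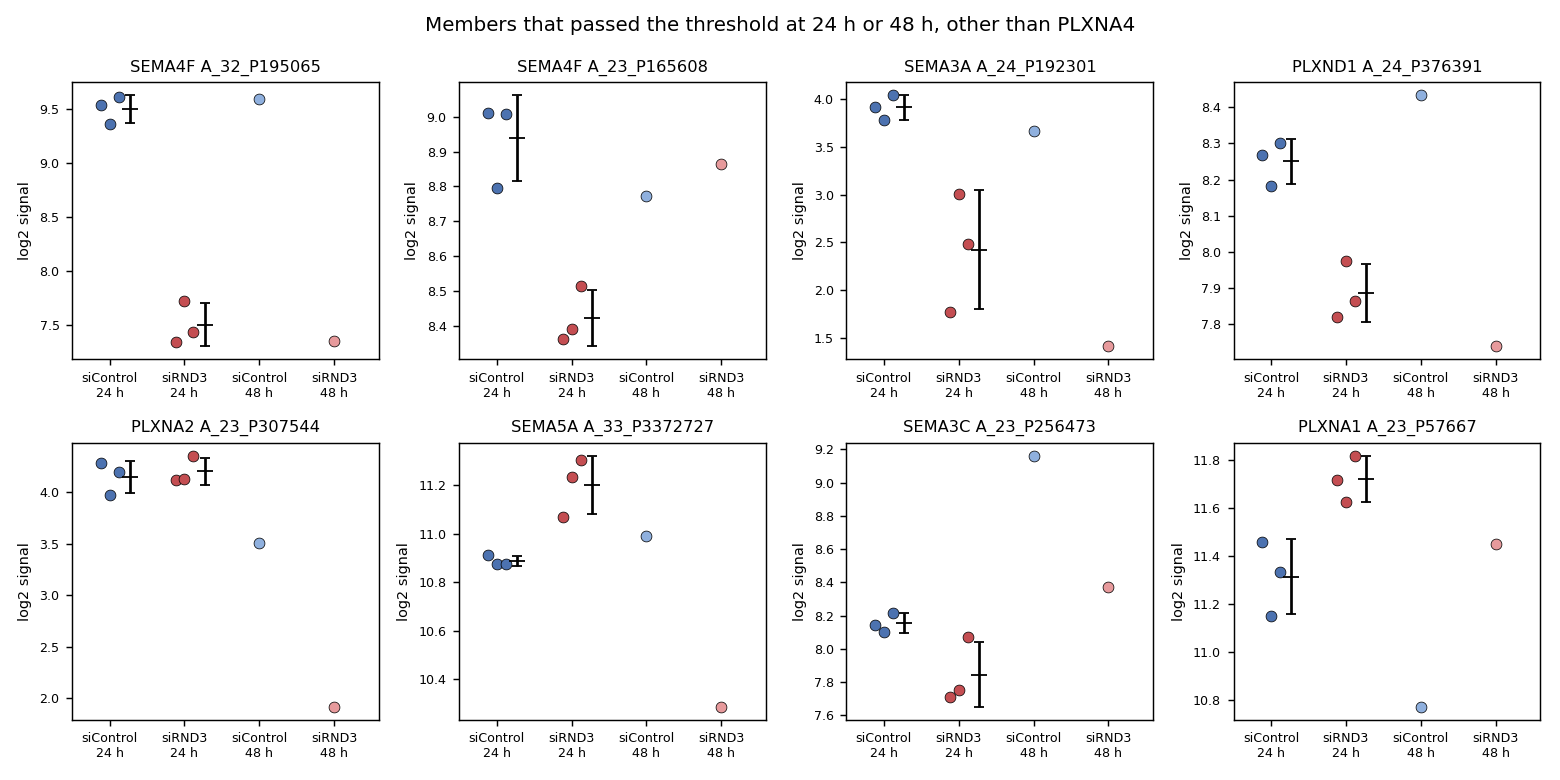
Log2 signal by array for the members other than PLXNA4 that passed at 24 h or 48 h, with the mean and SD beside groups of 3 arrays, and each panel has its own axis, which does not start at 0. SEMA4F A_32_P195065 and PLXND1 are low in siRND3 cells at both times, while PLXNA2 and SEMA5A are low only on the siRND3 array at 48 h.

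To ask whether the knockdown effect differed between times, the effect at 24 h was subtracted from that at 48 h and the result tested in the same model. It was lower for 3 members, PLXNA2, PLXNA4 and SEMA5A, where 2.56% of all genes were called lower, and higher for none, where 1.68% were. For SEMA5A the effect went from 0.32 to -0.71, a change of -1.02 (limma adjusted p 0.0376). Against the floor at 48 h, the effect fell further by 1.01 on the log2 scale for PLXNA2 and by 1.60 for PLXNA4 probe A_33_P3279959. PLXNA4 probe A_24_P772488, measured on all arrays, changed by -1.20 (limma adjusted p 0.0452). None of these calls was made when any 1 of the 3 siControl arrays at 24 h was left out, and the calls of SEMA5A and of PLXNA4 probe A_24_P772488 were also lost without any 1 of the 3 siRND3 arrays at 24 h. PLXNA2 was likewise not called without siRND3 replicate 1 or 2. Under normexp correction and in the authors' log2 values SEMA5A alone was called. SEMA4F probe A_32_P195065 and PLXND1 did not change past the threshold between times, with 95% intervals from -0.84 to 0.36 and from -0.71 to 0.05.

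**Figure D4:**
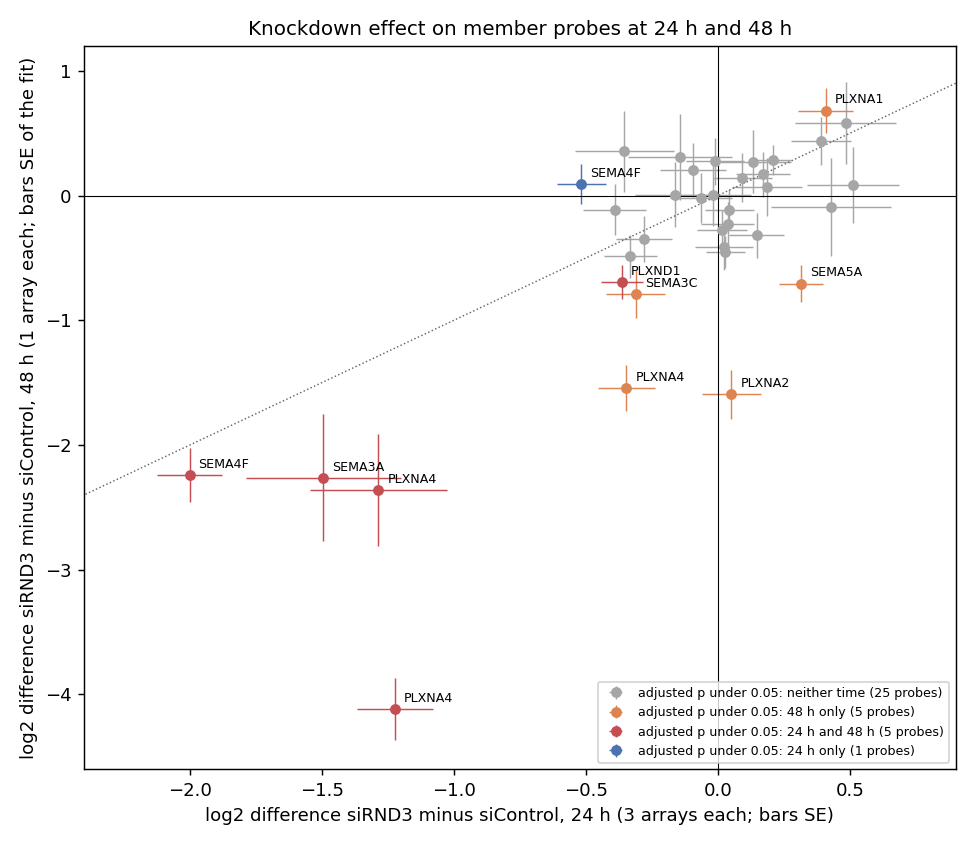
Knockdown effect (log2 siRND3 minus siControl) of the 36 tested probes at 24 h (horizontal) and 48 h (vertical), with SE bars and a dotted line of equal effects. Fitted values of probes not well above background at 48 h rest on dim signal. SEMA3A and PLXNA4 A_33_P3279969 were tested only through the siControl arrays at 24 h, where they were high. The 5 red probes (SEMA4F, SEMA3A, PLXND1 and 2 of PLXNA4) passed at both times, while PLXNA2 and SEMA5A lie below the horizontal axis and right of the vertical one.

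Time was also compared within each condition. In siControl cells SEMA3C rose by 1.01 (limma adjusted p 0.0281) and SEMA4C, a class 4 ligand named after its values were seen, by 0.77 (limma adjusted p 0.0195) from 24 h to 48 h. These were 2 of 24 members, where 1.19% of all genes were called higher, and none was called lower, where 3.99% were. Neither call was made when any 1 siControl array at 24 h was left out. In siRND3 cells 4 members were lower at 48 h (PLXNA2, PLXNA4, SEMA3B and SEMA5A), where 9.19% of all genes were, and none was higher, where 3.61% were. SEMA3B fell by 0.74 (limma adjusted p 0.0343) and SEMA5A by 0.92 (limma adjusted p 0.00862). The SEMA3B call was lost when any 1 array at 24 h other than siRND3 replicate 3 was left out.

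A list of 53 partners of semaphorin signalling was set beside the members, comprising co-receptors, small GTPases, their exchange and activating factors, kinases and actin effectors, collapsin response mediators (CRMPs), and adaptor or processing proteins. Of these, 46 were tested at 24 h, and 6 were down-regulated and 1 up-regulated, where 9.26% of all genes were called lower and 7.16% higher. The median log2 difference was 0.06 over the partners and 0.04 over all genes. The lower calls were 3 without siControl replicate 1 or 3 and without siRND3 replicate 1 or 3, and the higher calls were 2 without siControl replicate 3. Over all tested probes these settings gave 967, 908, 1485 and 1514 lower calls, against 1835 in the main comparison. Without siControl replicate 3, 471 probes were called higher, against 1515. The co-receptor MET, the hepatocyte growth factor receptor, which associates with class B plexins, read 13.31, 13.21 and 13.26 in siControl cells and 12.39, 12.18 and 12.36 in siRND3 cells. It fell without overlap to 51.7% of siControl (difference -0.95, SE 0.09, limma adjusted p 0.00144). KDR, a VEGF receptor and neuropilin partner, fell by 1.11 (SE 0.25, log2, limma adjusted p 0.0394). The small GTPases RAC1, which binds plexins and drives lamellipodia, and MRAS, a relative of the plexin substrate R-Ras, fell by 0.62 (limma adjusted p 0.00464) and by 0.30 (limma adjusted p 0.0356).

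TRIO, an exchange factor for RAC1, fell by 0.54 (limma adjusted p 0.00788), and FURIN, the protease that processes class 3 semaphorins, fell by 0.44 (limma adjusted p 0.0280). MICAL3, of a family of monooxygenases that act on actin downstream of plexins, rose at 1 of its 3 probes (A_33_P3267814, difference 0.60, SE 0.09, limma adjusted p 0.0109), and its other 2 probes gave 0.29 and 0.35 and did not pass. None of the 4 tested CRMP genes was called. RND2, a relative of RND3, had a difference of -0.62 (limma adjusted p 0.0807) and was not called at 24 h. The plexin substrates RRAS and RAP1B were not called at 24 h either. At 48 h MET read 13.22 in siControl and 10.67 in siRND3 cells (difference -2.55, SE 0.15, limma adjusted p 0.000336). Of the 46 tested partners, 6 were lower at 48 h (KDR, MET, RND2, FARP1, TRIO and FURIN), where 13.3% of all genes were, and 4 were higher (RRAS, GSK3B, LIMK1 and MICAL3), where 14.3% were. RAC1 (-0.36, limma adjusted p 0.117) and MRAS (-0.10, limma adjusted p 0.649) were not called at 48 h.

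**Figure D5:**
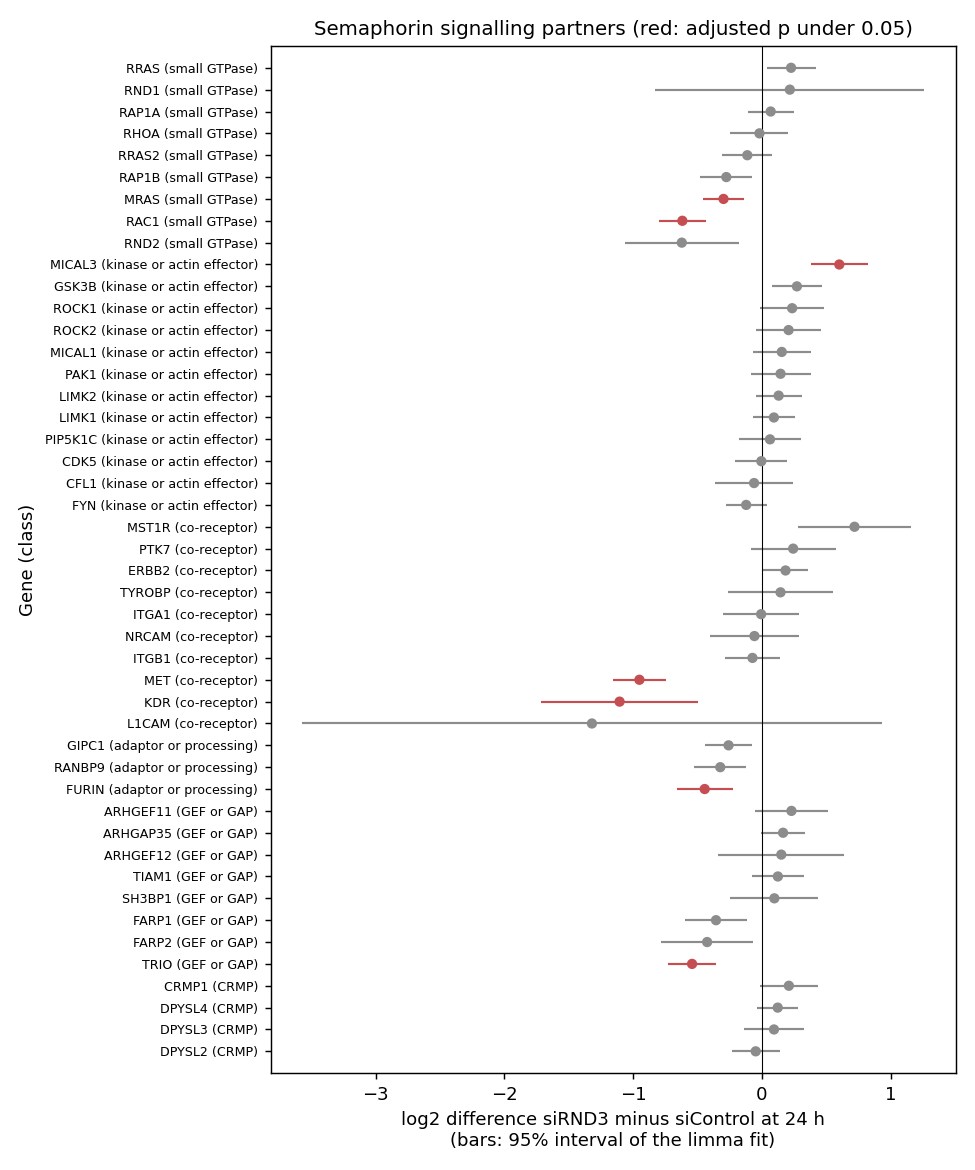
Log2 difference siRND3 minus siControl at 24 h with its 95% limma interval for the 46 tested partners, grouped by class, at the probe with the lowest p of each gene. Red marks an adjusted p under 0.05. The 6 red genes left of 0 are KDR, MET, RAC1, TRIO, FURIN and MRAS, and MICAL3 is the red gene on the right.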

How the data were processed

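Total RNA of U87 cells was labelled with Cy3 by the authors with a low-input amplification kit and hybridised to human Agilent arrays, which were read with Agilent Feature Extraction 10.7.3.1. The deposited files of each array give spot intensity on a linear scale, corrected for background by the scanner software per the file headers. The authors also deposited log2 values, for which the methods state quantile normalisation. Groups came from the deposited labels.

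The processed intensity was log2-transformed and quantile-normalised across the 8 arrays, control and outlier spots were left out, and spots of a probe were averaged. Probes called well above background (in at least 50% of their spots) on all 3 arrays of a group at 24 h were tested (28759 probes). Transcript accessions named 25422 of the 42405 probes through RefSeq (GRCh38.p14). siRND3 was compared with siControl at 24 h in limma 3.58.1 (R 4.3.3) over 6 arrays, and at both times in a limma model of 4 groups. P-values were adjusted by Benjamini-Hochberg across these probes, with a threshold of 0.05. A gene was called when at least 1 probe passed and none passed the other way. Permutation tests used scipy 1.17.1. The number of arrays limits the precision.

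Named were RND3, members past the threshold, the plexins, neuropilins and class 3 semaphorins detected on every array at 24 h, and partners past the threshold at 24 h. Members and lists were chosen with earlier results of these data known. Alternatives were scaling to the 75th percentile, normexp with an offset of 50 (on spot medians), the authors' log2 values, normalisation of the 6 arrays at 24 h, other filters, SAM at a false discovery rate of 5%, a replicate block, all 8 arrays with treatment and time, the mean of a gene's probes, and leaving out each array at 24 h.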

Additional observations from a re-analysis of the deposited data

Results flagged for a closer look

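For 3 members the knockdown effect differed between 24 h and 48 h by the test of that difference in the 4-group limma model, with 1 array per condition at 48 h. The 48 h effect less the 24 h effect was -1.64 for PLXNA2 (limma adjusted p 0.0281), -2.89 for PLXNA4 probe A_33_P3279959 (limma adjusted p 0.0165), -1.20 for PLXNA4 probe A_24_P772488 (limma adjusted p 0.0452) and -1.02 for SEMA5A (limma adjusted p 0.0376). The values of PLXNA2 and A_33_P3279959 rest on a siRND3 array where the probe was not well above background. Against the floor, the lowest signal well above background on that array, the further falls were 1.01 and 1.60. That floor is no strict limit. None of these calls was made when any 1 of the 3 siControl arrays at 24 h was left out. With normexp correction and in the authors' log2 values SEMA5A alone was called. The smallest changes over the alternatives were -0.14 for PLXNA2, -0.23 for A_33_P3279959, -0.29 for A_24_P772488 and -0.88 for SEMA5A.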

How the results depend on the processing

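The falls of SEMA4F (A_32_P195065) and PLXNA4 (A_33_P3279959) at 24 h passed under all alternatives run, between -2.11 and -1.26 and between -1.95 and -0.39, where the smallest SEMA4F value is the mean of its probes. The number of members called lower at 24 h was 2 (PLXNA4 and SEMA4F) with the replicate number as a block and 2 to 4 with 1 array left out. Members called higher, 0 in the main comparison, were 2 under 75th percentile scaling, 3 with normexp, 2 in the authors' values, 1 with the filter on all 6 arrays, 1 with SAM, 2 in the fit to all 8 arrays and 0 to 2 with 1 array left out. Partners called lower were 10 with normexp and in the fit to all 8 arrays, 3 with the block and 3 to 6 with 1 array left out. Partners called higher were 2 or 3 under 75th percentile scaling, normexp, the authors' values, the filter on all 6 arrays, SAM and the fit to all 8 arrays, and 1 to 2 with 1 array left out. Over all tested probes, 1515 were called higher and 1835 lower in the main comparison. Probes called higher were 1894 under 75th percentile scaling, 2072 with normexp, 1827 in the authors' values and 1630 with that filter. They were 1766 with SAM, 2273 in the fit to all 8 arrays and 471 to 1089 with 1 array left out. Probes called lower were 2137 with normexp, 2399 in that fit, 1062 with the block and 908 to 1514 with 1 array left out. Correlations of deviations were 0.00, -0.01 and 0.13 for arrays of equal replicate number and between -0.13 and 0.11 for the others. Deviations from means of 3 arrays cannot exclude pairing, and at 24 h the replicate number was also the slide column. The block lowered the probes called from 3350 to 1651. For the alternatives that follow, at 48 h and for time, calls over all genes were not counted. At 48 h the 1 higher member was 0 without a filter on dim probes and 0 to 1 with 1 array left out. For the effect at 48 h minus that at 24 h, 1 lower member was left with normexp and in the authors' values, and 0 to 2 with 1 array left out. For time, siControl cells had 1 lower member with normexp, and 0 to 2 higher members with 1 array left out, and siRND3 cells had 3 higher members with normexp, 2 in the authors' values and 0 to 1 with 1 array left out. The differences that changed sign were called in neither direction, and all but PLXNA2 in the fit to all 8 arrays were small. They were NRP1 A_24_P928052 with normexp (-0.00034) and in the fit to all 8 arrays (-0.058), NRP2 A_24_P50801 (-0.028), PLXNA2 (-0.36) and SEMA3B (-0.086) in that fit, PLXNB3 there (0.061) and under 75th percentile scaling (0.020), and PLXNA4 A_33_P3321034 under that scaling (0.032). With 1 array left out, sign changes lay within ranges of -0.064 to 0.080 for NRP1 A_24_P928052, -0.016 to 0.12 for NRP2 A_24_P50801, -0.0064 to 0.11 for NRP2 A_33_P3297415, -0.036 to 0.12 for PLXNA2, -0.17 to 0.087 for PLXNA4 A_33_P3321034, -0.32 to 0.025 for PLXNB1, -0.12 to 0.052 for PLXNB3 and -0.048 to 0.11 for SEMA3B. The cause of these changes was not tested.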
